A study of Homo sapiens with 4 samples.

Results

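The genes described here are BDH1, the target of the hairpin used in the study, and 8 further genes that make, use or carry ketone bodies: BDH2, OXCT1, ACAT1, AACS, SLC16A1, SLC16A3, SLC16A7 and BSG. They were taken by gene name from the protein-coding rows of the table, and all 9 were found among 15429 protein-coding genes and 25122 genes in all. RNA was measured by mRNA sequencing in Jurkat cells, a human line that was derived from a T-cell acute lymphoblastic leukaemia. Of the 4 libraries, 2 came from cells treated with a short hairpin RNA that targets BDH1 (shBDH1) and 2 from cells given a control hairpin (shcontrol). The labels give genotype WT for every library, and the hairpin is the only stated difference. Neither the hairpin sequence nor the number of hairpins or cultures is given, so p-values measure the spread between libraries, which may be technical. The study is titled around ketone metabolism, CDK4, histone modification and leukaemia, and its design text names MYC among genes downstream of BDH1. Cells with restored MYC, which that text mentions, were not analysed here.

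Ketone bodies are small acids, mainly acetoacetate and its reduced partner beta-hydroxybutyrate, that liver mitochondria make from fatty acids in fasting and that other tissues burn. BDH1 interconverts both acids in the mitochondrial matrix. OXCT1 then loads acetoacetate with coenzyme A, and ACAT1 splits the product into acetyl-CoA for the citric acid cycle. AACS activates acetoacetate in the cytosol, where it can enter lipid and sterol synthesis. The acids cross membranes through proton-coupled monocarboxylate transporters, which also carry lactate and pyruvate: SLC16A1 (MCT1), SLC16A7 (MCT2) and SLC16A3 (MCT4). BSG (basigin) is the membrane glycoprotein that brings MCT1 and MCT4 to the cell surface. In proliferating T cells these carriers are known above all for the export of lactate.

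Values are normalized counts, that is reads per gene that the authors divided by a size factor for each library. The shBDH1 libraries held 29453383 and 28777374 reads in genes, and the shcontrol libraries 28681511 and 28797402. The libraries within a group differed beyond sampling noise, with a chi-square per degree of freedom of 4.98 for shBDH1 and 3.71 for shcontrol, so no pair was treated as repeats of 1 library. This spread does not show that they came from separate cultures. All 12 T cell markers of a fixed list had reads, and their summed value was 60280 to 61624 in shBDH1 and 51635 to 51990 in shcontrol. The 5 markers of T-cell leukaemia lines summed to 21855 to 21948 in shBDH1 and 32808 to 32942 in shcontrol, but they did not move together. DNTT, RAG1 and RAG2 were lower in each shBDH1 library than in any control, whereas GATA3 and TAL1 were higher. Markers of other blood cells had far lower sums, which were higher in shBDH1: 3 of 4 B cell markers were in the table and summed to 666 and 686 in shBDH1 and to 220 in each shcontrol library. The NK markers, 3 of 4, summed to 170 to 237 in shBDH1 and 65.7 to 72.6 in shcontrol, and the myeloid markers, 3 of 4, to 53.3 to 55 in shBDH1 and 12.3 to 19.5 in shcontrol. The myeloid gene LYZ was at 0 in both shBDH1 libraries. COL1A1, the fibroblast marker, had 546 and 534 in shBDH1, against 388 and 406 in shcontrol. The hepatocyte gene ALB lay between 0 and 9.05 in all libraries. The part of such genes in the results below was not tested.

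Of the 9 genes, BDH1, OXCT1 and SLC16A1 were lower in shBDH1 and SLC16A7 was higher, and 5 did not pass the test (limma on log2(value + 1), Benjamini-Hochberg adjusted p under 0.05 over 19301 genes). Among all genes tested, 41.1% passed, 20.3% higher and 20.8% lower, so 4 of 9 is near the background and is no result about these genes as a set. With edgeR 40.9% of genes passed and with DESeq2 34.5%, and both tools called the same 4 of the 9. Among protein-coding genes at least as abundant as the lowest of the 9, 57% passed and 78.9% had groups that did not overlap. The median log2 fold change was -0.10 over the 9 genes and -0.01 over all genes tested. Both groups stood apart for 6 of the 9 genes, against 69% of all genes tested. All fold changes are shBDH1 over shcontrol. In bulk RNA, fewer cells that express a gene and less RNA per cell cannot be told apart.

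**Figure D1:**
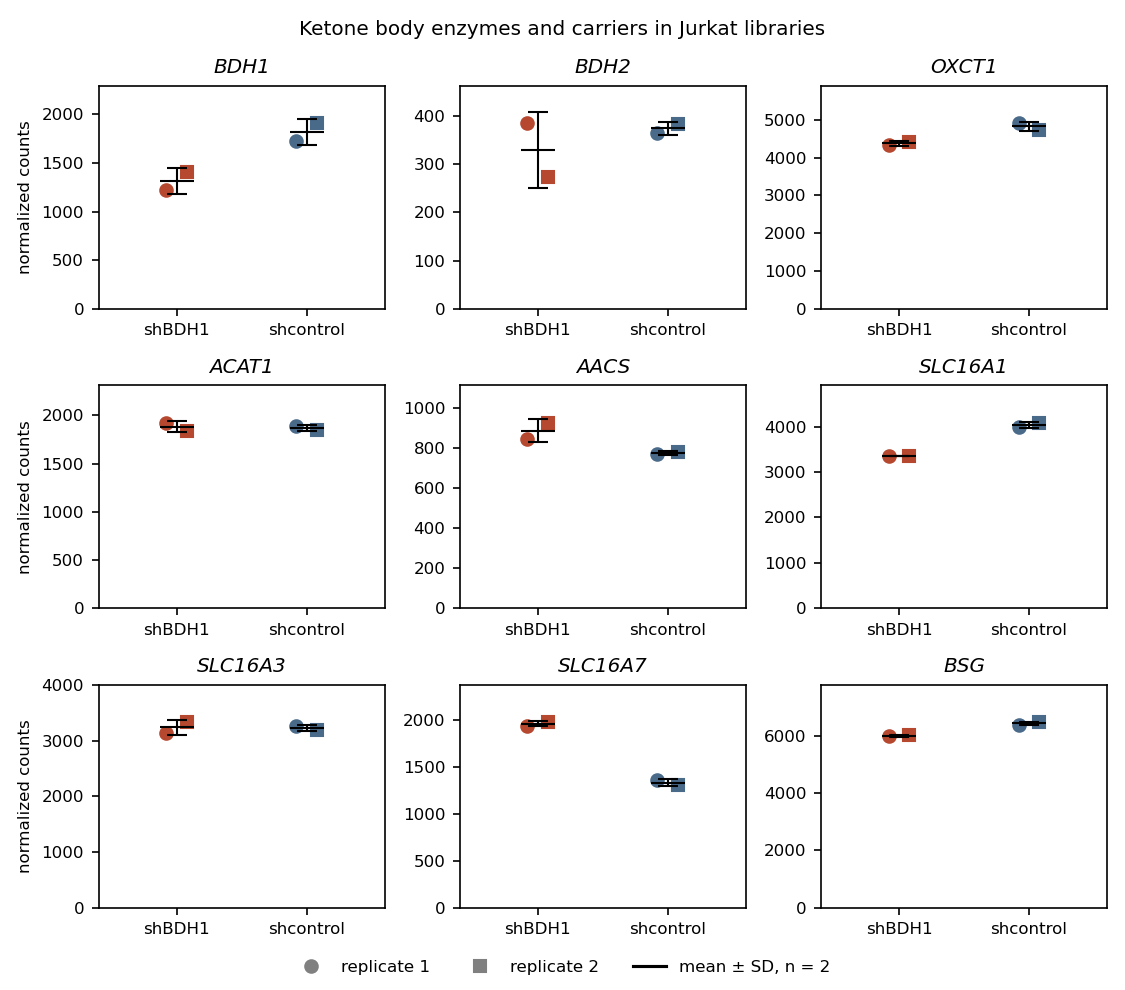
Normalized counts (vertical axes, from 0) of the 9 genes in each library, with shBDH1 left of shcontrol; circles are replicate 1, squares replicate 2, and bars the mean ± SD (n = 2). BDH1 and SLC16A7 show the widest gaps relative to their level, 1221 and 1412 in shBDH1 against 1725 and 1911 in shcontrol for BDH1, and BDH2 shows 1 low shBDH1 library at 274.

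BDH1, the mitochondrial dehydrogenase and hairpin target, had 1221 and 1412 normalized counts in shBDH1, against 1725 and 1911 in shcontrol. Both shBDH1 libraries lay below both shcontrol libraries, and replicate 2 was the higher one in each group. The mean was 1316 ± 135 in shBDH1 and 1818 ± 132 in shcontrol (SD, n = 2 each). BDH1 fell by 27.6%, with a 95% interval from -35.3% to -19.2%. On the log2 scale this was -0.47 (SE 0.078, limma adjusted p = 1.5e-05). Of the genes called lower, 1514, or 37.7%, fell further than the target itself. Without an intensity-dependent prior on the variance the fall of BDH1 missed the threshold (log2 fold change -0.47, limma adjusted p = 0.083).

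BDH1 (ENSG00000161267) lies on the minus strand of chromosome 3 from 197509783 to 197573323 in hg38. The RefSeq promoter table lists 2 start sites for it. One, at 197573343, is poor in CpG (1 CpG in 300 bases, 44.3% G and C), and the other, at 197555968, is rich in CpG (39 CpGs, 76.7% G and C). The gene-level counts do not say which start was used. The bases before the CpG-rich start that no annotated exon covers are shown as the promoter region of the targeted gene (GRCh38.p14, minus strand, chr3:197556049-197556218, 5′ to 3′), beside those of the member that rose and of the member with an E-box.
BDH1: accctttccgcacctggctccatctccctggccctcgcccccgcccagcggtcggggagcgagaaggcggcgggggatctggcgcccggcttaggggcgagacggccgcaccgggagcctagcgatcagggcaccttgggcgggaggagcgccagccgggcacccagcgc
SLC16A7: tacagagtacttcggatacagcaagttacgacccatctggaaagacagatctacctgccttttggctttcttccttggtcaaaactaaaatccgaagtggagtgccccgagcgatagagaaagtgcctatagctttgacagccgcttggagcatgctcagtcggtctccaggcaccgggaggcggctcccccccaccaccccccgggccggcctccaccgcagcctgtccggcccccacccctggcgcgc
BSG: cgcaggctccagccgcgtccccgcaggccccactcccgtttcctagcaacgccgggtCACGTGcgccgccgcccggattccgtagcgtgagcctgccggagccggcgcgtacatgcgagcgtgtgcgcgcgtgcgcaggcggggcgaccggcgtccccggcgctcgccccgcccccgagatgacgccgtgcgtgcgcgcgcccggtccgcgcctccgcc
The SLC16A7 stretch (chr12:59595779-59596028, plus strand) precedes its CpG-rich start at 59596029, with 21 CpGs in 300 bases. The BSG stretch (chr19:572346-572564, plus strand) holds the capitals CACGTG, the palindromic E-box that MYC and its relatives bind, at chr19:572403-572408.

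The RefSeq promoter table (250 bases before to 50 after each start, GRCh38.p14) matched 8 of the 9 genes with 17 windows, all but SLC16A1. Of these windows, 1 held CACGTG, against 7.26% of 35116 promoters. Searches on both strands for TGACGTCA (cyclic AMP response element), TGATGCAA (a form of the ATF4 composite element) and the palindromic NRF1 element found no match in the 17 windows. Matches occurred in 1.85%, 0.866% and 1.24% of all promoters. A missing match says only that the letters are not in these windows.

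OXCT1, which performs the committed step of ketone body use, had 4336 and 4421 normalized counts in shBDH1, against 4912 and 4735 in shcontrol. The groups did not overlap, but the gap was narrow. OXCT1 fell by 9.23%, or -0.14 on the log2 scale (SE 0.048, limma adjusted p = 0.021). This call was lost with upper-quartile scaling (edgeR adjusted p = 0.11), with library totals only (edgeR adjusted p = 0.052) and without an intensity-dependent prior (limma adjusted p = 0.21). It was also lost without shcontrol replicate 1 (log2 fold change -0.11, limma adjusted p = 0.21) or shBDH1 replicate 1 (-0.13, limma adjusted p = 0.064). OXCT1 (ENSG00000083720) lies on chromosome 5 from 41730065 to 41870519.

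ACAT1, the mitochondrial thiolase, had 1926 and 1843 normalized counts in shBDH1, against 1894 and 1850 in shcontrol, and the groups overlapped. Its log2 fold change was 0.01 (95% interval -0.12 to 0.14, limma adjusted p = 0.92), so the interval spans changes of -8.27% to 10.5%. ACAT1 (ENSG00000075239) lies on chromosome 11 from 108121516 to 108147776. The antisense gene AP002433.1 shares 163 exonic bases with it on the other strand and had 1062 and 1131 in shBDH1, against 762 and 929 in shcontrol. That rise had a log2 fold change of 0.38 (limma adjusted p = 0.0016), and 0.24 (limma adjusted p = 0.081) without shcontrol replicate 1. The second antisense gene, AP002433.2, which shares 212 exonic bases, had 747 and 704 in shBDH1, against 712 and 758 in shcontrol. Whether reads were counted by strand is not given in the sources used here, so reads in shared bases may be assigned to either gene.

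The ratio of BDH1 to its partner enzymes was lower in shBDH1. The log2 ratio of BDH1 to OXCT1 was -1.83 and -1.65 in shBDH1, against -1.51 and -1.31 in shcontrol. The log2 ratio of BDH1 to ACAT1 was -0.66 and -0.38 in shBDH1, against -0.14 and 0.05 in shcontrol. Both ratios separated the groups, but they hold the same BDH1 values and are no result apart from the fall of BDH1. No p is given for ratios or shares, since an exact permutation test of 2 libraries against 2 cannot go below 0.333.

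BDH2, a cytosolic relative of BDH1 in the short-chain dehydrogenase family, had 385 and 274 normalized counts in shBDH1, against 365 and 383 in shcontrol. One shBDH1 library lay above both controls and the other below them. The log2 fold change was -0.20 (95% interval -0.52 to 0.11, limma adjusted p = 0.31). The value rested on which shBDH1 library was kept: it was -0.45 (limma adjusted p = 0.046) without shBDH1 replicate 1 and 0.04 (limma adjusted p = 0.87) without shBDH1 replicate 2. BDH2 (ENSG00000164039) lies on chromosome 4 from 103079435 to 103099883. It shares 397 exonic bases on the same strand with SLC9B2, which had 637 and 557 in shBDH1, against 756 and 746 in shcontrol. The log2 fold change of SLC9B2 was -0.33 (limma adjusted p = 0.011), and -0.24 (limma adjusted p = 0.13) without shBDH1 replicate 2, so the separate values of this pair are uncertain.

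AACS, the cytosolic enzyme that activates acetoacetate for lipid synthesis, had 847 and 927 normalized counts in shBDH1, against 768 and 782 in shcontrol. Both shBDH1 libraries lay above both controls. The log2 fold change of 0.19 did not pass the threshold (SE 0.093, limma adjusted p = 0.098), and did so with upper-quartile scaling (0.24, edgeR adjusted p = 0.043). AACS (ENSG00000081760) lies on chromosome 12 from 125065379 to 125143333.

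**Figure D2:**
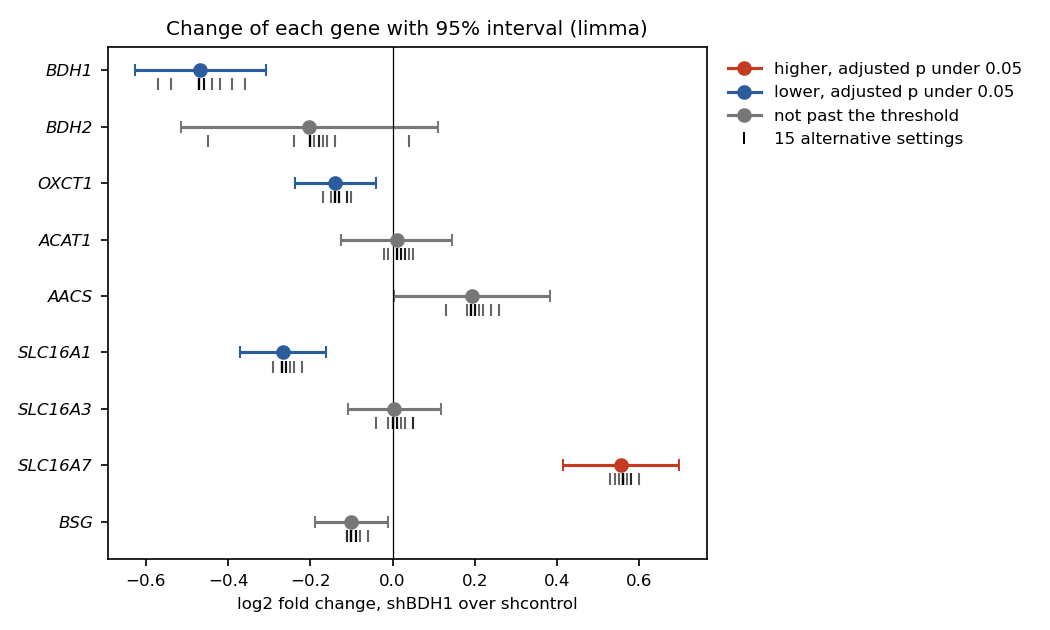
Log2 fold change of each gene (horizontal axis, shBDH1 over shcontrol) with its 95% interval from limma; red passed the threshold as higher, blue as lower, grey did not pass, and black ticks are 15 alternative settings. SLC16A7 at 0.56 and BDH1 at -0.47 lie farthest from 0, and the ticks of BDH2 reach from -0.45 to 0.04.

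The carriers moved apart. SLC16A1 (MCT1), the widely expressed lactate and ketone carrier, had 3352 and 3351 normalized counts in shBDH1, against 3979 and 4086 in shcontrol. The groups did not overlap, and SLC16A1 fell by 16.9%, or -0.27 on the log2 scale (SE 0.051, limma adjusted p = 0.0001). Without an intensity-dependent prior the call was lost (limma adjusted p = 0.073). SLC16A1 (ENSG00000155380) lies on chromosome 1 from 112911847 to 112957013. The antisense gene SLC16A1-AS1 shares 175 exonic bases with it on the other strand and had 748 and 865 in shBDH1, against 1028 and 1017 in shcontrol. SLC16A1-AS1 fell with a log2 fold change of -0.35 (limma adjusted p = 0.0031), or -0.24 (limma adjusted p = 0.072) without shBDH1 replicate 1. The pseudogene AKR7A2P1, inside SLC16A1 on the other strand with no shared exonic base, had 14.7 and 14.1 in shBDH1, against 5.13 and 22.5 in shcontrol, and overlapped between groups.

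SLC16A7 (MCT2), the carrier with high affinity for pyruvate and ketone bodies, had 1937 and 1975 normalized counts in shBDH1, against 1356 and 1305 in shcontrol. The shBDH1 libraries lay far above the controls relative to the spread within each group. SLC16A7 rose by 47%, or 0.56 on the log2 scale (SE 0.069, 95% interval 0.41 to 0.70, limma adjusted p = 1.6e-07). It passed the threshold in all 15 alternative settings, with values from 0.53 to 0.60 and adjusted p up to 0.034. Of the genes called higher, 1833, or 46.9%, rose further. SLC16A7 (ENSG00000118596) lies on chromosome 12 from 59596067 to 59789855.

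SLC16A3 (MCT4), the lactate exporter of glycolytic cells, had 3144 and 3335 normalized counts in shBDH1, against 3271 and 3185 in shcontrol, and the groups overlapped. Its log2 fold change was 0.00 (95% interval -0.11 to 0.12, limma adjusted p = 0.96), so the interval spans changes of -7.18% to 8.43%. SLC16A3 (ENSG00000141526) lies on chromosome 17 from 82228397 to 82261129. It shares 482 exonic bases with CSNK1D on the other strand, which had 5537 and 5782 in shBDH1, against 5487 and 5490 in shcontrol (log2 fold change 0.04, limma adjusted p = 0.47).

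BSG, the shared chaperone of MCT1 and MCT4, had 5980 and 6023 normalized counts in shBDH1, against 6392 and 6479 in shcontrol. The groups did not overlap, yet the log2 fold change of -0.10 did not pass the threshold (SE 0.043, 95% interval -0.19 to -0.01, limma adjusted p = 0.065). BSG (ENSG00000172270) lies on chromosome 19 from 571277 to 583493. The antisense gene AC009005.1, which shares 140 exonic bases with it, had 134 and 140 in shBDH1, against 182 and 181 in shcontrol (log2 fold change -0.41, limma adjusted p = 0.12).

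Levels were compared between genes per kilobase of merged exons (GENCODE 29). BSG led with a mean over the 4 libraries of 1638 normalized counts per kb, above 96.3% of protein-coding genes tested, followed by OXCT1 with 1097 and SLC16A1 with 695 normalized counts per kb. SLC16A3 followed with 360, ACAT1 with 336, BDH1 with 172, SLC16A7 with 120, BDH2 with 104 and AACS with 51.6 normalized counts per kb. BDH1 thus stood near the middle of protein-coding genes, above 47.5% of them. In shBDH1, BDH1 with 134 and 155 and SLC16A7 with 142 and 145 normalized counts per kb overlapped. In shcontrol they did not, with 189 and 210 for BDH1 and 99.3 and 95.5 for SLC16A7. The overlap in shBDH1 depends on the length used: per kb of the longest transcript, BDH1 had 344 and 398 and SLC16A7 164 and 168 in shBDH1. On that scale ACAT1 (832) stood above SLC16A3 (670) and close to SLC16A1 (844).

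Within the 3 transporter genes, SLC16A1 made up 56.2% and 55% of the summed level per kb in shBDH1, against 61.8% and 63.1% in shcontrol. SLC16A7 made up 12.6% in each shBDH1 library, against 8.19% and 7.84% in shcontrol. SLC16A3 made up 31.1% and 32.3% in shBDH1, against 30% and 29% in shcontrol. The shares of each gene separated the groups, and SLC16A1 remained the largest of the 3 in every library. Shares of 1 sum depend on each other, so a share can move without its own gene. SLC16A3 itself had a log2 fold change of 0.00 and overlapping groups. The log2 ratio of SLC16A7 to SLC16A1 counts was -0.79 and -0.76 in shBDH1, against -1.55 and -1.65 in shcontrol.

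**Figure D3:**
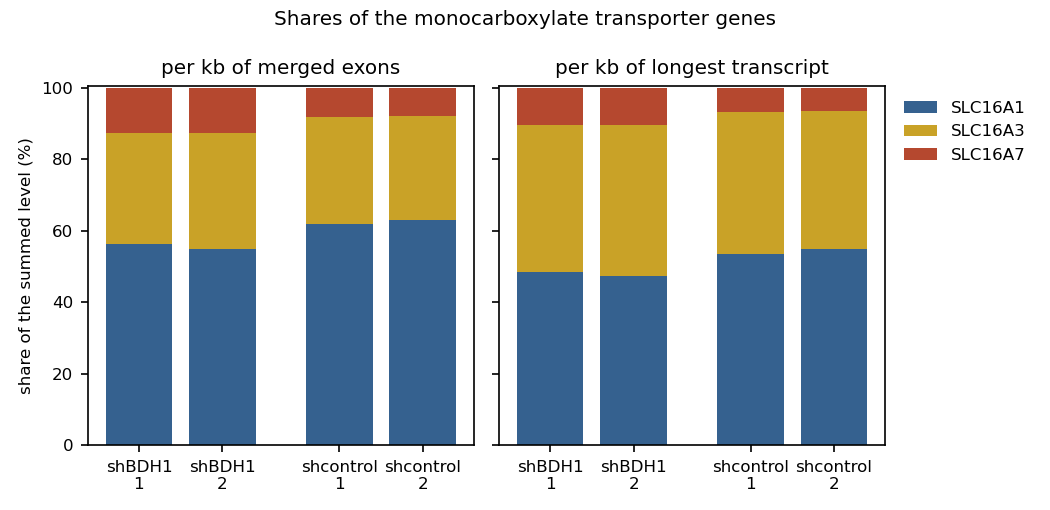
Share in percent (vertical axis) of SLC16A1, SLC16A3 and SLC16A7 in their summed level in each library, per kb of merged exons (left) and per kb of the longest transcript (right), shBDH1 libraries left of shcontrol. The SLC16A7 share is 12.6% in both shBDH1 libraries, against 8.19% and 7.84% in shcontrol, per kb of merged exons.

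Other members of the carrier family and its partner proteins gave 4 rises and 1 fall among 12 tested genes (median log2 fold change 0.16, against -0.01 over all genes). Over all genes 20.3% rose and 20.8% fell, so this count is near the background. NPTN (neuroplastin), a close relative of basigin, had 2074 and 2199 normalized counts in shBDH1, against 1310 and 1157 in shcontrol. It rose by 0.79 on the log2 scale (SE 0.073, limma adjusted p = 5.9e-10). EMB (embigin), the third protein of that family and a partner of MCT2, had 5753 and 5980 in shBDH1, against 4819 and 4790 in shcontrol (log2 fold change 0.29, limma adjusted p = 8.6e-06). Without an intensity-dependent prior the call of EMB was lost (limma adjusted p = 0.069), as were those of SLC16A6 and SLC16A10 (limma adjusted p = 0.071 and 0.3). Both partner proteins were higher in each shBDH1 library than in any control.

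SLC16A6 (MCT7), which exports ketone bodies from the liver in zebrafish, had 121 and 91.5 normalized counts in shBDH1, against 59.6 and 63.4 in shcontrol (log2 fold change 0.77, limma adjusted p = 0.036). That call was lost without shcontrol replicate 1 (0.72, limma adjusted p = 0.099), shcontrol replicate 2 (0.81, limma adjusted p = 0.063) or shBDH1 replicate 1 (0.57, limma adjusted p = 0.28), and with DESeq2 (adjusted p = 0.079). The 1 fall was SLC16A10, a carrier of aromatic amino acids, with 588 and 421 in shBDH1, against 582 and 750 in shcontrol. These groups overlapped, and the log2 fold change of -0.41 (limma adjusted p = 0.016) was -0.23 (limma adjusted p = 0.25) without shcontrol replicate 2 and -0.17 (limma adjusted p = 0.38) without shBDH1 replicate 2. SLC16A8 (MCT3) overlapped between groups, with 99.3 and 76.4 in shBDH1, against 77 and 88.9 in shcontrol.

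Among genes of branched-chain amino acid breakdown, a pathway that yields ketone bodies from leucine, 7 of 11 tested fell and none rose. The median log2 fold change was -0.20, against -0.01 over all genes, of which 20.8% fell. Of protein-coding genes as abundant as the 9, 57% passed in either direction. The list was chosen with earlier results of these data known, so its count is no result about the pathway as a set. BCAT2, the mitochondrial transaminase that starts the pathway, had 1287 and 1227 normalized counts in shBDH1, against 2259 and 2255 in shcontrol (log2 fold change -0.84, limma adjusted p = 3.7e-11). Its cytosolic counterpart BCAT1 had 4052 and 3681 in shBDH1, against 6497 and 6370 in shcontrol (log2 fold change -0.74, limma adjusted p = 1e-12). Both transaminases lay lower in each shBDH1 library than in any control.

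MCCC2, a subunit of the leucine-specific carboxylase, had 1340 and 1327 normalized counts in shBDH1, against 2312 and 2299 in shcontrol (log2 fold change -0.79, limma adjusted p = 9e-11). Its partner subunit MCCC1 did not pass the test, with 2248 and 2383 in shBDH1, against 2496 and 2441 in shcontrol (log2 fold change -0.09, 95% interval -0.22 to 0.03, limma adjusted p = 0.23), and is named after its values were seen. DBT, a core subunit of the branched-chain dehydrogenase, had 1197 and 1270 in shBDH1, against 1607 and 1656 in shcontrol (log2 fold change -0.40, limma adjusted p = 5.2e-05). With each library left out in turn, 6 of the 11 fell and none rose in each case, and without an intensity-dependent prior 3 fell, DBT not among them (limma adjusted p = 0.051).

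Genes that handle lactate and pyruvate went both ways, 4 higher and 5 lower of 13 tested (median log2 fold change -0.02), against 20.3% higher and 20.8% lower over all genes and 57% called in either direction among protein-coding genes as abundant as the 9. The number higher was 2 without shcontrol replicate 2. LDHA, which interconverts pyruvate and lactate, had 19922 and 21019 normalized counts in shBDH1, against 22518 and 23349 in shcontrol (log2 fold change -0.16, limma adjusted p = 0.00023). MPC2, a subunit of the mitochondrial pyruvate carrier, had 958 and 1107 in shBDH1, against 1509 and 1634 in shcontrol (log2 fold change -0.61, limma adjusted p = 6e-07). Both lay lower in each shBDH1 library than in any control. Kinases that inhibit pyruvate dehydrogenase went both ways: PDK1 (-0.52) and PDK2 (-0.62) fell on the log2 scale (limma adjusted p at most 2.4e-05 for each) and PDK3 (0.24) rose (limma adjusted p = 0.0034). The call of PDK3 was lost without shcontrol replicate 1 (0.16, limma adjusted p = 0.13). Subunits of that complex went both ways as well, PDHX (0.47) higher (limma adjusted p = 5.6e-06) and the catalytic PDHA1 (-0.37) lower (limma adjusted p = 8.3e-06). PDK3 and PDHA1 are named after their values were seen. LDHB was not analysed here. Without an intensity-dependent prior the calls of LDHA, MPC2, PDK2, PDHX and PDK3 were lost, at limma adjusted p of 0.19, 0.054, 0.079, 0.055 and 0.17, and 0 genes of this list were higher and 2 lower.

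Enzymes that take acetoacetyl-CoA towards sterols gave 2 rises and 1 fall among 9 (median log2 fold change -0.07), no more than the 41.1% of all genes that passed. MVK (mevalonate kinase) had 473 and 453 normalized counts in shBDH1, against 620 and 680 in shcontrol (log2 fold change -0.49, limma adjusted p = 0.00076). The number lower was 2 without shBDH1 replicate 2. IDI1, an isomerase further along, rose by 0.31 on the log2 scale (limma adjusted p = 0.00041). FDFT1 (squalene synthase) rose by 0.12 (limma adjusted p = 0.016), or by 0.08 without shcontrol replicate 1 (limma adjusted p = 0.3) and 0.11 without shBDH1 replicate 1 (limma adjusted p = 0.052). Without an intensity-dependent prior 0 genes of this list were higher (limma adjusted p = 0.14 for IDI1 and 0.27 for FDFT1).

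Beta-hydroxybutyrate can be attached to lysines of histones. Of 8 tested genes known to add or remove this mark, 1 rose and 3 fell (median log2 fold change -0.11), near the 41.1% of all genes that passed and no result about these genes as a set. EP300, an acyltransferase that writes it, had 4448 and 4296 normalized counts in shBDH1, against 3876 and 3654 in shcontrol (log2 fold change 0.22, limma adjusted p = 0.0011). The deacylases SIRT2 and SIRT3 fell with a log2 fold change of -0.42 each (limma adjusted p = 2.6e-05 for SIRT2 and 0.00071 for SIRT3). SIRT3, the main mitochondrial deacetylase, had 681 and 639 in shBDH1, against 881 and 883 in shcontrol. HDAC3 fell with -0.18 (limma adjusted p = 0.012), or -0.14 without shcontrol replicate 1 (limma adjusted p = 0.16) and -0.14 without shBDH1 replicate 1 (limma adjusted p = 0.084), and its call was also lost with upper-quartile scaling (edgeR adjusted p = 0.052). The number higher was 2 without shBDH1 replicate 1. Without an intensity-dependent prior EP300 (limma adjusted p = 0.13), SIRT2 (limma adjusted p = 0.054) and HDAC3 (limma adjusted p = 0.17) did not pass.

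Of the regulators and receptors, 2 of 6 in the table were abundant enough to test, PPARA and HCAR1, and both rose. This count cannot be set against the share of all genes that rose. HCAR1 was abundant enough only through its shBDH1 values, so a fall from its shcontrol level could not have been tested. PPARA, the nuclear receptor that switches on ketogenesis in liver, had 1397 and 1469 normalized counts in shBDH1, against 981 and 1006 in shcontrol (log2 fold change 0.53, limma adjusted p = 2.8e-06). HCAR1, the lactate receptor, had 21.6 and 23.1 in shBDH1, against 4.11 and 5.11 in shcontrol (log2 fold change 2.06, limma adjusted p = 0.035). At such low values the call of HCAR1 was lost without shcontrol replicate 1 (limma adjusted p = 0.058), shBDH1 replicate 1 (limma adjusted p = 0.13) or shBDH1 replicate 2 (limma adjusted p = 0.15). HCAR2, the receptor for beta-hydroxybutyrate, had 13.8 and 8.05 in shBDH1, against 6.16 and 1.02 in shcontrol. Its groups did not overlap, but it was too low to test.

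MYC had 7453 and 7368 normalized counts in shBDH1, against 14683 and 14804 in shcontrol, and CDK4 had 4151 and 3909 in shBDH1, against 6006 and 5885 in shcontrol. Both genes, which the study names, were lower in each shBDH1 library than in any control. They had log2 fold changes of -0.99 (SE 0.038, limma adjusted p = 2.7e-18) and -0.56 (SE 0.048, limma adjusted p = 1.3e-10), against -0.47 for BDH1. The 95% interval of MYC (-1.07 to -0.92) lay apart from that of BDH1 (-0.63 to -0.31), but that of CDK4 (-0.66 to -0.46) overlapped it. Without shBDH1 replicate 2, the order of CDK4 and BDH1 was reversed, with BDH1 at -0.57 and CDK4 at -0.52. The 3 protein-coding genes most like BDH1 over the 4 libraries were CWC15, ERI1 and POLR1B, out of 6663 with a mean of at least 1000 normalized counts. Likeness was the Euclidean distance between centred log2(value + 1), which was 0.030 for CWC15, 0.052 for ERI1 and 0.053 for POLR1B. CWC15 had 863 and 1019 normalized counts in shBDH1, against 1211 and 1350 in shcontrol.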

How the data were processed

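The deposited table holds 1 signal value per gene and library: reads per gene after division by a size factor by the authors, although its name calls them raw. Every value was a whole multiple of 1 step per library, which gave whole reads for 100.0% of values (tolerance 0.01 reads), with size factors of 1.0174 and 0.9944 (shBDH1) and 0.9739 and 0.9785 (shcontrol). The submitters' processing notes name hg38, FastQC 0.11.9 and HISAT2 2.2.1; for the counter, annotation and strand setting nothing is given in the sources used here.

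The 19301 genes whose mean reached 10 entered limma, on log2(value + 1) and with a prior that follows intensity (2 residual and 25.8 prior degrees of freedom). Log2 fold changes on this scale understate changes of low genes. Alternatives were edgeR, DESeq2 and limma-voom on recovered reads, other scalings, filters, pseudocounts and priors, a replicate block, and each library left out. The fit was first tested on simulated data in which every gene had the same set spread between libraries. It found 24 of 50 genes changed 1.25-fold, 48 of 50 changed 1.5-fold and 50 of 50 changed 2-fold. Changes of 1.25-fold were thus often missed. The genes named are the 9, MYC, CDK4, genes overlapping the 9, the 3 most like BDH1, up to 4 called genes per list with the largest change, and SLC16A8, EMB and LDHA; some genes the rule names are not reported here. Members and lists were chosen with earlier results of these data known. Positions come from GENCODE 29 and promoters from RefSeq. Software was limma 3.58.1, DESeq2 1.42.0 and edgeR 4.0.16 in R 4.3.3, with pandas 2.3.3, numpy 2.4.6 and matplotlib 3.10.9 in Python 3.11.15.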

Additional observations from a re-analysis of the deposited data

How the results depend on the processing

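Of the 9 genes, SLC16A7 kept its call in all 15 alternatives, and BDH1 and SLC16A1 in all but the one without an intensity-dependent prior. In that setting 1 member was higher and 0 lower, BDH1 was at -0.47 (limma adjusted p = 0.083), and 1598 genes rose and 1246 fell instead of 3910 and 4020. It also left 3 of 11 genes of branched-chain amino acid breakdown lower. With upper-quartile scaling (edgeR) 2 members were higher, AACS joining. With each library left out in turn, the log2 fold change of BDH1 ranged from -0.57 to -0.36, 2 to 3 members were called lower and 1 higher, and 3145 to 3472 genes rose and 3206 to 3639 fell. Counting error weighs most on low genes such as HCAR1. A fit with 1 library left in a group assumes that the lone library varies like the other group. Values near 0 changed sign: ACAT1 was -0.01 without shcontrol replicate 2 and -0.02 without shBDH1 replicate 1, SLC16A3 was -0.01 without shcontrol replicate 2 and -0.04 without shBDH1 replicate 2 (0.05 without shBDH1 replicate 1), and BDH2 was 0.04 without shBDH1 replicate 2 and -0.45 without shBDH1 replicate 1. The difference in the SLC16A1 share ranged from -7.48 to -6.17 percentage points, that of SLC16A3 from 1.62 to 2.82 and that of SLC16A7 from 4.43 to 4.79 with a library left out, and they were -6.32, 2.59 and 3.73 with the longest transcript as length.

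Replicate numbers are shared by the groups, but nothing in the labels says that they pair the libraries. The deviations of same-numbered libraries correlated with r = 0.001 over all genes tested and with r = 0.035 over the 13922 with a mean of at least 100. With the replicate number as a block, 4108 genes rose and 4217 fell, the log2 fold change of BDH1 stayed at -0.47, and BSG passed the threshold (-0.10, limma adjusted p = 0.046). The cause of these differences was not tested. Counts for the gene lists under the alternatives were added after the data were seen.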
